A study of Schizosaccharomyces pombe with 6 samples.

Results

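The long terminal repeats (LTRs) and Tf2 retrotransposons of fission yeast were examined as sites of Ino80C association. The 251 elements were every feature that the ASM294v3 annotation types as a long terminal repeat on chromosomes I to III (238 LTRs) and every gene it names Tf2 (13 genes, Tf2-1 to Tf2-13), out of 12606 annotated genes and the 238 repeats. An LTR lying within 500 bp of a Tf2 gene was taken as part of a full-length element (25 LTRs, 1 of them shared by the tandem pair Tf2-7 and Tf2-8), and the other 213 were taken as solo LTRs. Of the libraries, 4 were used, 2 of Hap2-GFP (anti-GFP) and 2 of Arp5-3HA (anti-HA). All came from strain B4628, whose Hap2 carries GFP and whose Arp5 carries 3 HA copies in the same cells (Arp5-3HA-NAT Hap2-GFP-KAN), grown in rich medium. There was no untagged strain among the libraries used, the 2 inputs were not analysed here, and the labels leave unsaid whether replicates were separate cultures, so any spread between lists could be purely technical. Each library is represented by 1 list of ChIP-seq peaks, which gives the bounds, summit and score of every peak but no read counts, so the depth behind any peak is unknown. The Hap2-GFP lists held 3758 and 4259 peaks on the 3 chromosomes, and the Arp5-3HA lists held 4206 and 4277.

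LTR retrotransposons copy themselves through an RNA intermediate and insert the DNA copy elsewhere in the genome, with an identical LTR at each end. Recombination between both LTRs of a copy removes the coding part and leaves a solo LTR. In fission yeast the Tf1 and Tf2 elements insert preferentially upstream of genes read by RNA polymerase II, and Tf2 is the family still present as full-length copies in the reference strain. Ino80C is a chromatin remodeller that slides and edits nucleosomes. Arp5 is an actin-related subunit found in Ino80 complexes of yeast and human cells, and Hap2 is a small auxiliary subunit of the fission yeast complex.

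The sequences of 5 LTRs on which the counts turn are shown first. They comprise 1 LTR of a full-length Tf2 element, the LTR with the highest Hap2-GFP rank, a second LTR of the same 358-bp family, 90 bp upstream of eaf1, 1 of the 4 identical LTRs of a tandem array, and the single LTR with a peak in all 4 lists. Each was read from ASM294v3 on the strand that the annotation gives the LTR, 5′ to 3′, up to 300 bases. Capitals mark bases that lay under a peak in both Hap2-GFP lists at that copy.
LTR of Tf2-2, chromosome I, 1568384 to 1568732, minus strand: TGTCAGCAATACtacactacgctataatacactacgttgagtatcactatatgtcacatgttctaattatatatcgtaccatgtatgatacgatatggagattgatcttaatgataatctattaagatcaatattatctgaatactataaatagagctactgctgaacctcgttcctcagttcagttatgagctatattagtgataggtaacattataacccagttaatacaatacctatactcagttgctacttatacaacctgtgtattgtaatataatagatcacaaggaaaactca
solo LTR near tif51, chromosome I, 4140539 to 4140896, minus strand: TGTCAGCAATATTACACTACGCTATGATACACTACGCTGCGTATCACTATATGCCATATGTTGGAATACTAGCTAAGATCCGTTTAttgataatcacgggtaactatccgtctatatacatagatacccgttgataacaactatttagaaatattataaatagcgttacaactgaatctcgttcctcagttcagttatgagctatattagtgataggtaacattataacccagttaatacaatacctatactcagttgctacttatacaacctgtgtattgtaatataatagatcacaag
solo LTR near eaf1, chromosome III, 1862027 to 1862384, minus strand: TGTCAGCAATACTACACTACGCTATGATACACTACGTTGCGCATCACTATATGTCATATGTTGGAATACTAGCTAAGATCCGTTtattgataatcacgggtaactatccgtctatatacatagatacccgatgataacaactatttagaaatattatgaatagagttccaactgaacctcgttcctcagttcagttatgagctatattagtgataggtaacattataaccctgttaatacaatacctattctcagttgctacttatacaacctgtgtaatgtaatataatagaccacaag
solo LTR of the array, chromosome II, 93517 to 93860, minus strand: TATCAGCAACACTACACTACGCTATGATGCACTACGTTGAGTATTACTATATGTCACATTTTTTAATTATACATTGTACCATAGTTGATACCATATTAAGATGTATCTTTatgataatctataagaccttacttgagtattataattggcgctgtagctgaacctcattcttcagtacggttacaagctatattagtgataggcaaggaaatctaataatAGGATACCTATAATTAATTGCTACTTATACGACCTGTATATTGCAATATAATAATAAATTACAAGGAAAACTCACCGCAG
solo LTR near a tRNA-Val gene, chromosome I, 446075 to 446342, plus strand: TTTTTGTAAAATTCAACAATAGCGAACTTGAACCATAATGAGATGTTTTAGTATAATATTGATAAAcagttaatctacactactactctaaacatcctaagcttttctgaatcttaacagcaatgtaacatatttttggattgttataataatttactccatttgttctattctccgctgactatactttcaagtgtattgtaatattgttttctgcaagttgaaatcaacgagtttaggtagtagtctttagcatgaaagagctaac
In the first 3 of these the capitals form 1 block at the 5′ end, of 12, 86 and 84 bases. The array LTR had a block at each end with an uncovered middle, and the last had 66 capitals next to the tRNA gene. The LTR of Tf2-2 is 349 bases long and occurs 12 times with no base changed. The next 2 commonest LTR sequences of Tf2 differ from it by T271C (7 copies) and A296G (3 copies), counting from 1 at the 5′ end.

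Hap2-GFP peaks were present over 24.8% of the LTRs in both lists and Arp5-3HA peaks over 0.420%. Hap2-GFP peaks overlapped 84 LTRs in list 1 (35.3%, 95% Wilson interval 29.5 to 41.6%) and 78 in list 2 (32.8%, 27.1 to 39.0%). Arp5-3HA peaks overlapped 1 LTR in list 1 (0.420%, 0.0742 to 2.34%) and 3 in list 2 (1.26%, 0.430 to 3.64%). These intervals cover counting error over LTRs only. In both Hap2-GFP lists the same 59 of 238 LTRs had a peak (24.8%, interval 19.7 to 30.6%), while 1 of 238 had one in both Arp5-3HA lists (0.420%). A peak of either Hap2-GFP list was present at 103 LTRs, and 135 LTRs had no peak in any of the 4 lists. The share of LTRs with a peak averaged 34.0% ± 1.78 for Hap2-GFP and 0.840% ± 0.594 for Arp5-3HA (SD, n = 2 lists each). The difference of 33.2 percentage points exceeded the spread between lists, with every Hap2-GFP list above every Arp5-3HA list. An exact two-sided permutation test over the 4 lists gave p = 0.33, the smallest that 2 against 2 allows.

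The share for Hap2-GFP was close to that of 350-bp windows without a coding gene, and the share for Arp5-3HA was below it. When the chromosomes were divided into 35918 consecutive windows of 350 bp, about the length of an LTR, both Hap2-GFP lists had a peak in 13.9% of windows and both Arp5-3HA lists in 13.3%. Among the 5560 windows that touched no coding gene the shares were 25.8% for Hap2-GFP and 8.35% for Arp5-3HA. Of the 12593 annotated genes other than Tf2, 26.7% had a Hap2-GFP peak in both lists and 26.8% an Arp5-3HA peak in both. For the 5100 coding genes among them the shares were 31.1% and 38.2%. List by list, the share of LTRs minus the share of windows without a coding gene was 4.92 and 0.759 percentage points for Hap2-GFP, and -10.2 and -10.6 percentage points for Arp5-3HA. The windows without a coding gene include those over LTRs, Tf2 genes and noncoding genes. Of 171 tRNA genes, 95.3% had a Hap2-GFP peak in both lists and 74.3% an Arp5-3HA peak in both. Among the 5108 windows that touched neither a coding gene nor an element, 31.3% and 33.3% had a Hap2-GFP peak in lists 1 and 2. The value for list 2 is above the 32.8% of LTRs. No test was made of these differences. Hap2-GFP peaks covered 14.8% and 12.2% of all LTR bases, against 10.9% and 12% of the 3 chromosomes. Arp5-3HA peaks covered 0.0471% and 0.124% of LTR bases, against 11.4% and 11.8% of the chromosomes.

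**Figure D1:**
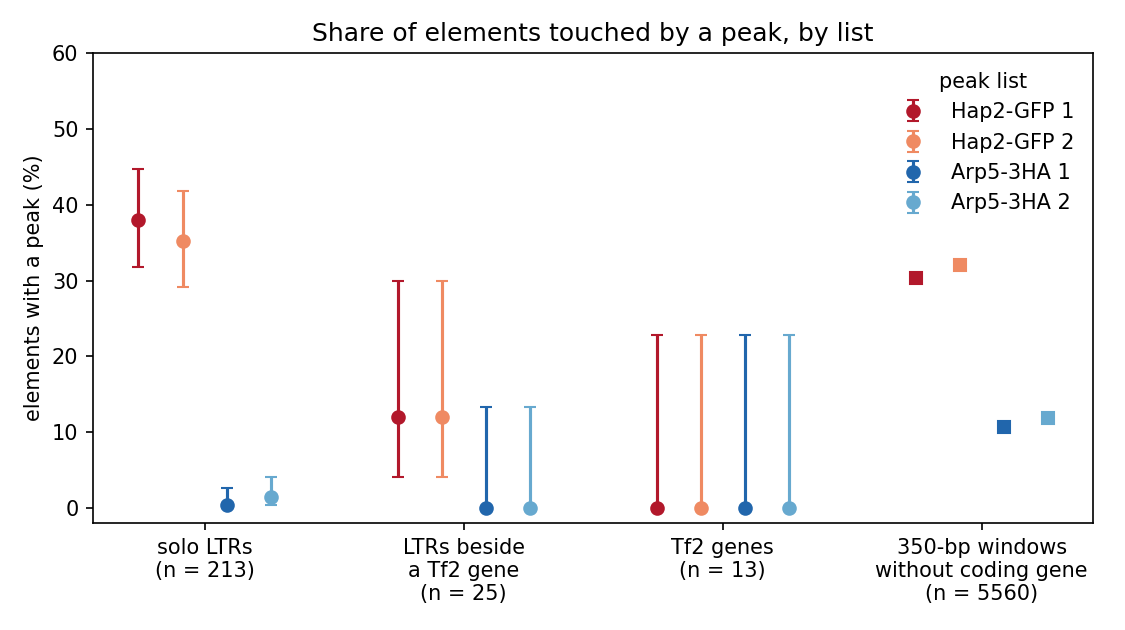
Share of elements overlapped by at least 1 base of a peak (vertical axis, percent) in each of the 4 lists, for solo LTRs, LTRs beside a Tf2 gene, Tf2 genes and 350-bp windows that touch no coding gene. Circles carry 95% Wilson intervals, and squares are the windows without intervals. The Hap2-GFP circles for solo LTRs (38.0% and 35.2%) lie above the Hap2-GFP squares (30.4% and 32%). The square is below the interval in list 1 (31.8 to 44.7%) and inside it in list 2 (29.1 to 41.8%). The Arp5-3HA circles (0.469% and 1.41%) lie under the Arp5-3HA squares (10.6% and 11.9%).

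The full-length Tf2 elements had few peaks. None of the 13 Tf2 genes, which encode the Gag, protease, reverse transcriptase and integrase of the element and are 4001 to 4117 bp long, was touched by a peak in any of the 4 lists. For independent genes a count of 0 of 13 would allow a share of up to 23.1%. These genes share most of their sequence and may share reads, so they are not 13 independent observations. Among 319 other coding genes of 3500 to 4500 bp, 43.6% had a Hap2-GFP peak in both lists and 65.8% an Arp5-3HA peak in both. The Tf2 genes are near-copies of each other, and between 0% and 9.06% of the 50-base words in each occur only once in the 3 chromosomes, with a median of 0%. How reads that match several places were treated is not given in the text and labels used here, and its part in the absence of peaks was not tested. Of 22 other coding genes of at least 1000 bp with under 10% unique words, 2 had a Hap2-GFP peak in both lists (9.09%) and 4 an Arp5-3HA peak in both (18.2%), against 31.5% and 41.2% of 4134 such genes whose words were all unique.

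The peaks nearest to Tf2 genes lay in or beyond the flanking LTRs. The distance from a Tf2 gene to its nearest peak had a median of 930 and 1668 bp in the Hap2-GFP lists and 1843 and 2812 bp in the Arp5-3HA lists. The shortest distance in any list was 290 bp, at Tf2-2 on chromosome I (1564101 to 1568217), and for 5117 bp around Tf2-6 (chromosome I, 4022492 to 4026493) there was no peak in any list. The next largest gaps were 2859 bp at Tf2-13 (chromosome III, 2320320 to 2324320) and 1652 bp at Tf2-12 (chromosome III, 778133 to 782134). The gap was 1591 bp at Tf2-9 (chromosome II, 1812748 to 1816749), 930 bp at Tf2-10 (chromosome II, 1965390 to 1969390), 909 bp at Tf2-7 (chromosome I, 5191060 to 5195145) and 868 bp at Tf2-8 (chromosome I, 5195711 to 5199712). Gaps under 500 bp were those of Tf2-2, Tf2-3 (303 bp, chromosome I, 2927204 to 2931205), Tf2-1 (352 bp, chromosome I, 1465847 to 1469848), Tf2-4 (392 bp, chromosome I, 3361547 to 3365548), Tf2-5 (432 bp, chromosome I, 3996423 to 4000424) and Tf2-11 (452 bp, chromosome II, 4414657 to 4418658). In each of these 6 cases the nearest peak came from a Hap2-GFP list.

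Of the 25 LTRs beside a Tf2 gene, 2 had a Hap2-GFP peak in both lists (8%, interval 2.22 to 25%), against 57 of 213 solo LTRs (26.8%, interval 21.3 to 33.1%). The intervals overlap, and the difference was not tested. The 2 were the LTR of Tf2-2 shown above, 82 bp upstream of SPAC1705.02, and an LTR of Tf2-3 at chromosome I, 2926805 to 2927153, whose nearest coding start is that of the ammonium transporter gene amt3. At the Tf2-2 copy the peaks spanned 1568721 to 1568920 in list 1 and 1568681 to 1568900 in list 2, so that most of each peak lay outside the element, on the side away from Tf2-2. At the Tf2-3 copy the peaks entered from the 3′ end and covered 27.5% of the LTR in list 1 and 13.2% in list 2, with 46 bases under both. No Arp5-3HA peak touched any of the 25. For independent LTRs this would allow a share of up to 12%, but many of the 25 have identical sequence and may share reads.

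Copies with identical sequence differed in Hap2-GFP peaks. Of the 12 LTRs identical to that of Tf2-2, 2 had a peak in both Hap2-GFP lists, 2 in 1 list and 8 in neither. Of the 7 copies with T271C, 1 had a peak in both lists and 6 in neither, and none of the 3 copies with A296G had one. Among the 12, the second copy with both peaks is a solo LTR at chromosome II, 3489303 to 3489651, whose nearest coding start, 1856 bp away, is that of zfs1, a zinc finger mRNA-binding protein gene. Only 18 of its 349 bases lay under both peaks, beside 12 at the Tf2-2 copy and 46 at the T271C copy of Tf2-3. Identical copies without a peak included those beside Tf2-9 (2 copies), Tf2-13 (2 copies) and the solo LTR 109 bp from the start of coa3. In contrast, the 4 identical LTRs of a tandem array on chromosome II, spaced 2759 bp apart and each 653 bp from a coding gene start (SPBPB10D8.04C to SPBPB10D8.07C), all had a peak in both Hap2-GFP lists. Their score ranks were 63.9, 35.6, 35.6 and 75.5 in list 1 and 67.6, 55.1, 70.0 and 51.0 in list 2, as percentiles among all peaks of the list. These 4 share their sequence and may share reads, so they count as 1 sequence rather than 4 observations. Without them 55 of 234 LTRs had a Hap2-GFP peak in both lists.

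**Figure D2:**
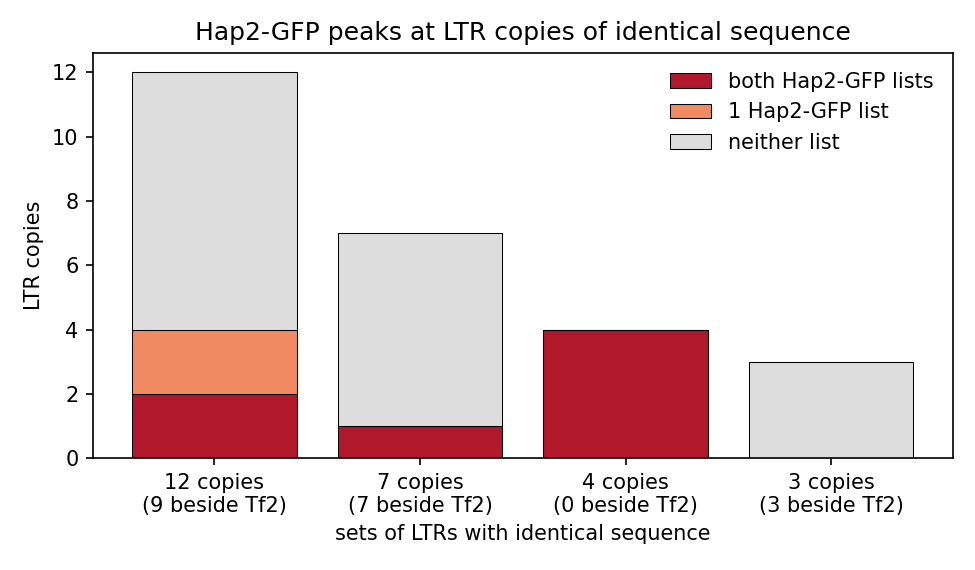
Number of LTR copies (vertical axis) in the 4 sets of 3 or more LTRs with identical sequence, by whether a Hap2-GFP peak overlapped the copy in both lists, in 1 list or in neither. The set of 12 holds 2 copies with both peaks and 8 with neither, while all 4 copies of the tandem array have both.

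When LTRs were grouped at 95% identity over 80% of their length, the largest group had 57 members, of which 39 were 349 bp long and 24 lay beside a Tf2 gene. Of these 57, 11 had a Hap2-GFP peak in both lists (19.3%). The second group had 20 solo LTRs, 14 of them 358 bp long, and 11 had a Hap2-GFP peak in both lists (55%), as shown for the copies near tif51 and eaf1. The 151 LTRs in groups of 1 or 2 included 33 with a peak in both lists (21.9%). The groups also differed in GC content, with a median of 34.6% in the 358-bp group, 33.0% in the 349-bp group and 32.2% in groups of 1 or 2. They further differed in the median distance to the nearest coding start, 133 bp in the 358-bp group, 214 bp in the 349-bp group and 266 bp in groups of 1 or 2. The part of either in the shares was not tested. The single LTR with Arp5-3HA peaks in both lists belonged to none of the groups of 3 or more.

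Hap2-GFP shares were higher in classes of higher GC content, both in LTRs and in windows without coding gene or element. Of the LTRs with 25 to 30% GC, 2 of 29 had a Hap2-GFP peak in both lists (6.90%), compared with 43 of 185 at 30 to 35% (23.2%) and 14 of 24 at 35 to 40% (58.3%). Windows that touched neither a coding gene nor an element gave 12.5%, 22.8% and 45.0% in the same order of GC classes. For Arp5-3HA the counts were 1 of 29, 0 of 185 and 0 of 24 LTRs, against 5.52%, 9.12% and 11.2% of these windows. In the 30 to 35% class, which holds most LTRs, the Arp5-3HA count of 0 of 185 stood beside 188 of 2062 windows.

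**Figure D3:**
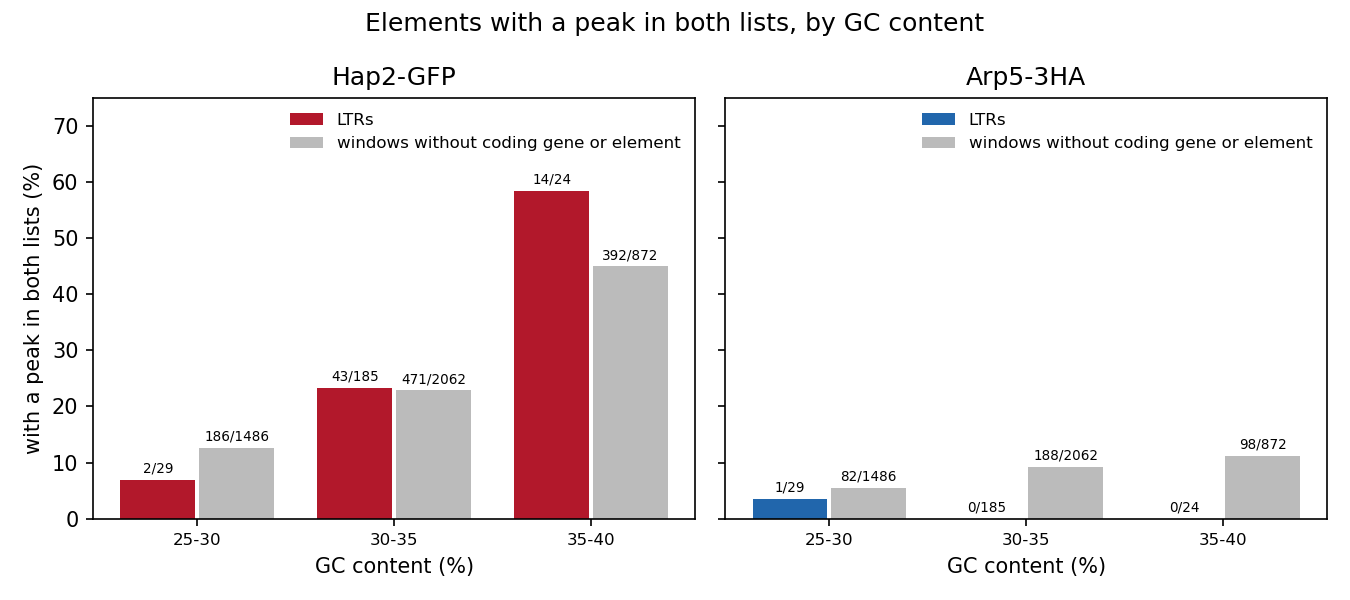
Percent of LTRs (colour) and of 350-bp windows touching neither a coding gene nor an element (grey) with a peak in both lists of Hap2-GFP (left) or Arp5-3HA (right), by GC content. Counts stand over the bars. Hap2-GFP bars increase with GC in both kinds of region, with 43 of 185 LTRs and 471 of 2062 windows in the middle class, where Arp5-3HA gives 0 and 188.

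Along the LTR, Hap2-GFP peaks covered the ends more often than the middle, and the adjoining flanks about as often as the ends. The first 10% of the LTR length, at its 5′ end, lay under a peak in 51 LTRs in list 1 and in 51 in list 2. The stretch from 40 to 50% of the length lay under a peak in 20 and 15 LTRs, and the last 10% in 48 and 45. Just outside the LTR, a flank of 10% of its length lay under a peak in 52 and 50 LTRs on the 5′ side. On the 3′ side the same flank was covered in 47 and 42. Summits fell inside 48 LTRs in list 1 and 34 in list 2, and inside 17 LTRs in both. Only 2 of 94 peaks over LTRs in list 1 and 0 of 90 in list 2 lay wholly within an LTR. In windows without coding gene or element 10.1% and 9.91% of the overlapping Hap2-GFP peaks lay wholly within the window. For the 59 LTRs with a peak in both lists, the strongest peak covered a median of 41.1% and 32.4% of the LTR.

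The dip in the middle was deeper in LTRs of repeated sequence, without a test of the difference. Among 103 LTRs with under 50% unique 50-base words, the first 10% was covered in 25 and 24 LTRs, the stretch from 40 to 50% in 5 and 1, and the last 10% in 17 and 17. Among 98 LTRs whose words were all unique, the first 10% was covered in 17 and 15, the stretch from 40 to 50% in 12 and 9, and the last 10% in 21 and 18. The presence of a peak anywhere over the LTR had no such order. Hap2-GFP peaks in both lists were found at 8 of 47 LTRs with no unique word (17%), 17 of 56 with some but under 50% (30.4%), 15 of 37 with 50% or more (40.5%) and 19 of 98 with all words unique (19.4%). Arp5-3HA peaks in both lists were found at 0 of 47, 0 of 56, 0 of 37 and 1 of 98. Of the windows without coding gene or element whose words were all unique, 26.3% had a Hap2-GFP peak in both lists and 5.91% an Arp5-3HA peak in both. Among 616 windows with no unique word that touched no coding gene or element, 22.9% had a Hap2-GFP peak and 17.5% an Arp5-3HA peak in both lists. With some but under 50% unique words, the shares were 14.0% and 10.4% of 164 such windows. With 50% or more but not all words unique, they were 64.7% and 48.9% of 184. Windows with no unique word that touched a coding gene other than Tf2, but no element, gave 14 of 234 (5.98%) for each protein. The part of read placement in any of these shares was not tested. Of the 122 windows with no unique word and an Arp5-3HA peak in both lists, 91 were on chromosome III, 18 on II and 13 on I.

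**Figure D4:**
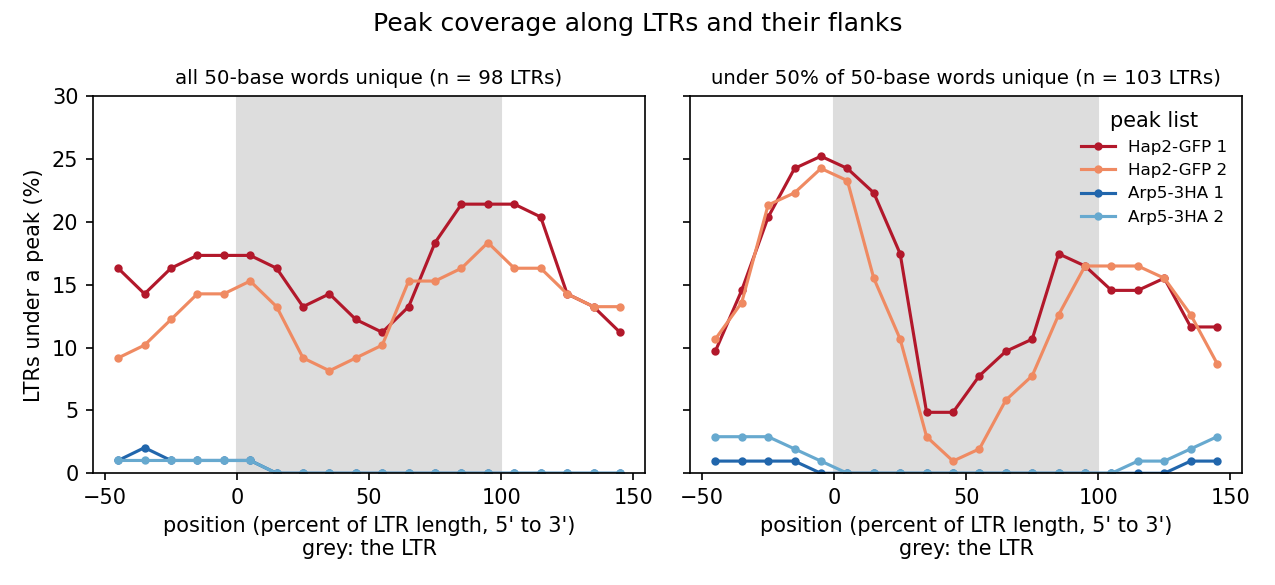
Percent of LTRs under a peak (vertical axis) at each 10% of the LTR length and over flanks of 50% of that length on either side, 5′ to 3′, for 98 LTRs whose 50-base words are all unique (left) and 103 LTRs with under 50% unique words (right). Lines are the 4 lists. In the right panel Hap2-GFP coverage dips at 40 to 50% of the length to 5 and 1 LTRs, and Arp5-3HA stays near 0 in both panels.

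Within 400 bp of LTR centres, summits were denser than over whole chromosomes for Hap2-GFP and sparser for Arp5-3HA. Within 200 bp of an LTR centre there were 66 and 57 Hap2-GFP summits, and 0 and 1 Arp5-3HA summits. Per kilobase this was 0.693 and 0.599 for Hap2-GFP, against 0.299 and 0.339 over whole chromosomes. Whole chromosomes include coding genes, and all windows had a lower Hap2-GFP share (13.9%) than windows without a coding gene (25.8%). For Arp5-3HA all windows had the higher share (13.3%, against 8.35% without a coding gene). Whole chromosomes are thus an unlike background to LTRs for both proteins. At 400 to 1000 bp from the centre, Hap2-GFP gave 0.238 and 0.298 summits per kilobase, below its values over whole chromosomes, and Arp5-3HA 0.154 and 0.144, against 0.335 and 0.340 for Arp5-3HA over whole chromosomes. Arp5-3HA summits within 400 bp of an LTR centre numbered 2 and 4 in all, or 0.0105 and 0.0210 per kilobase.

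Most LTRs lay upstream of the nearest coding gene start, a share with no background here because the side was not counted for windows. Of the 238, 213 lay upstream of the nearest coding gene start and 25 downstream, and 222 touched no coding gene. Hap2-GFP peaks in both lists were found at 57 of 213 LTRs upstream (26.8%) and at 2 of 25 downstream (8%), likewise without windows to set beside them. By distance to the nearest coding start, the Hap2-GFP counts were 11 of 54 LTRs within 100 bp (20.4%), 22 of 65 from there to 250 bp (33.8%) and 12 of 42 at 251 to 500 bp (28.6%). They were 7 of 30 at 501 to 1000 bp (23.3%), 7 of 26 at 1001 to 2000 bp (26.9%) and 0 of 21 beyond 2000 bp. Windows in these 6 classes gave 20.0%, 20.0%, 25.6%, 33.7%, 33.3% and 27.3% for Hap2-GFP, and 3.35%, 4.28%, 7.71%, 11.5%, 9.28% and 16.4% for Arp5-3HA. Arp5-3HA shares of windows were thus lowest within 250 bp of a start, where Arp5-3HA peaks in both lists were found at 0 of 54 and 0 of 65 LTRs. Farther out, at 501 to 1000 bp, the Arp5-3HA counts were 0 of 30 LTRs and 109 of 949 windows.

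**Figure D5:**
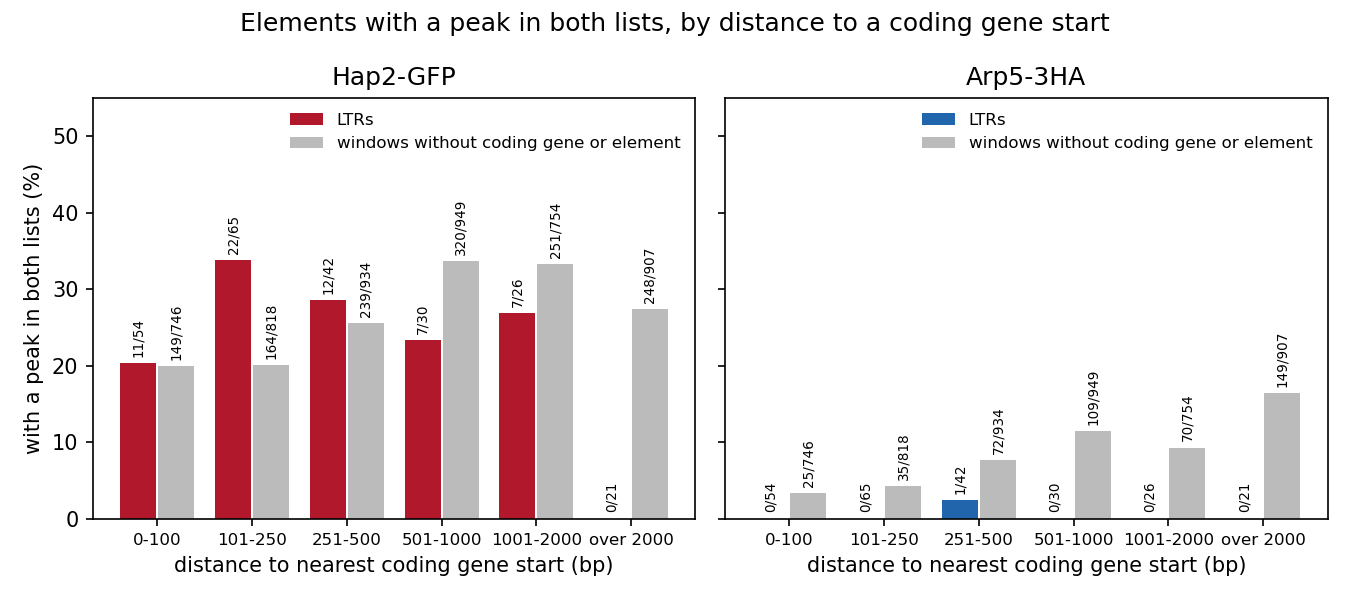
Percent of LTRs (colour) and of 350-bp windows touching neither a coding gene nor an element (grey) with a peak in both lists of Hap2-GFP (left) or Arp5-3HA (right), by distance to the nearest coding gene start in bp. Counts stand over the bars. LTRs and windows within 100 bp have near-equal Hap2-GFP shares (11 of 54 and 149 of 746), and the only Arp5-3HA bar for LTRs is 1 of 42 at 251 to 500 bp.

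Peaks over the coding genes nearest to LTRs were counted by the Hap2-GFP status of the LTR, without a test. The 59 LTRs with a Hap2-GFP peak in both lists had 58 nearest coding genes, of which 26 carried a Hap2-GFP peak (44.8%) and 23 an Arp5-3HA peak (39.7%) over the gene in both lists. The 135 LTRs with no Hap2-GFP peak had 122 nearest genes, of which 24 (19.7%) carried a Hap2-GFP peak and 35 (28.7%) an Arp5-3HA peak. The 44 LTRs with a Hap2-GFP peak in 1 list had 43 nearest genes, 15 with a Hap2-GFP peak (34.9%) and 21 with an Arp5-3HA peak (48.8%). Over all coding genes other than Tf2, 31.1% had a Hap2-GFP peak and 38.2% an Arp5-3HA peak. A peak that spans an LTR and the gene is counted for both. Of the 59 strongest Hap2-GFP peaks over these LTRs, 10 in list 1 and 12 in list 2 reached a coding gene start.

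The LTRs under the highest-scoring Hap2-GFP peaks included fragments and near-complete copies. Ranks are percentiles of the peak score within its list, and the lower of both lists orders the LTRs. The LTR near tif51, which encodes the translation factor eIF5A, stood first with ranks of 96.9 and 96.2. This LTR lies downstream of the tif51 start, 1440 bp from it. Its Hap2-GFP peaks extended over more than 1 kb outside the LTR (4140781 to 4142150 and 4140811 to 4142060). No Hap2-GFP summit lay inside the LTR in either list, so the high ranks are those of peaks centred outside it. An Arp5-3HA peak of list 2 (4140881 to 4142280, rank 97.2) touched the 5′ end of the LTR, with none in list 1. The second was a 349-bp LTR at chromosome II, 3282860 to 3283208, 128 bp upstream of gar1, a component of the small nucleolar particles that guide RNA pseudouridylation (ranks 91.2 and 91.5). The third was a 138-bp fragment at chromosome I, 4910978 to 4911115, 102 bp upstream of the proteasome regulatory subunit gene rpn502 (95.1 and 89.6), and peaks covered it whole. The LTR near the tRNA-Val gene (86.8 and 98.4) followed.

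Ranks near 80 were found for a 336-bp LTR at chromosome I, 106349 to 106684, 267 bp upstream of SPAC11D3.19 (81.8 and 81.7), and for the LTR of Tf2-2 (80.5 and 80.6). An LTR at chromosome III, 2083919 to 2084275, which touches SPCC576.02, had ranks of 89.4 and 80.6. Its nearest coding start is that of the peroxiredoxin gene tpx1, 1443 bp away, and the LTR lies downstream of it. The peak of list 2 there ran from 2084201 to 2085560, mostly outside the LTR. The LTR 90 bp upstream of eaf1, a transcription elongation factor gene, had 78.8 and 76.2. Over all LTRs the median rank of overlapping Hap2-GFP peaks was 43.5 in list 1 and 51.0 in list 2, so that these peaks were of middling score. Median peak length was 220 bp over LTRs in both Hap2-GFP lists, against 240 bp over all peaks.

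Only 3 LTRs were touched by an Arp5-3HA peak. The LTR near the tRNA-Val gene had peaks at 445961 to 446110 in list 1 (rank 19.4) and 445921 to 446090 in list 2 (rank 82.0). The tRNA gene SPATRNAVAL.01 lies at 446000 to 446071, 3 bp from the LTR, and in all 4 lists the same peak covered both. The other 2 were touched in list 2 alone. These were the LTR near tif51, described above, and an LTR at chromosome I, 4287575 to 4287933, 142 bp upstream of the ribosomal protein gene rps801 (4287871 to 4288030, rank 6.87). At this LTR Hap2-GFP had a peak in list 2 only (rank 70.0). No Arp5-3HA summit fell inside any LTR in either list, which allows a share of up to 1.26% if LTRs are taken as independent.

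Few LTRs were close to tRNA genes, where 95.3% of 171 genes had a Hap2-GFP peak in both lists and 74.3% an Arp5-3HA peak in both. Of the 238 LTRs, 4 lay within 500 bp of a tRNA gene and 3 more within 1000 bp, and 221 lay more than 5000 bp away. Among the 4, 2 had a Hap2-GFP peak in both lists (50%) and 1 an Arp5-3HA peak in both (25%), against 57 of 234 (24.4%) and 0 of 234 for LTRs farther away. With 4 LTRs the shares cannot be told apart. The tRNA genes of all 4 carried peaks in all 4 lists. At chromosome I, 4715792 to 4716149, 289 bp from SPATRNATHR.05, the Hap2-GFP peaks (4716041 to 4716280 and 4716071 to 4716260) were separate from those on the tRNA gene. The LTRs at chromosome III, 1207147 to 1207503, 327 bp from SPCTRNAVAL.11, and at chromosome II, 1826267 to 1826606, 408 bp from SPBTRNAPRO.04, had no peak in any list. Other LTRs without a peak nearest to a tRNA gene were at chromosome I, 2843759 to 2844091 (582 bp), chromosome III, 111397 to 111560 (2155 bp) and chromosome III, 2040788 to 2041141 (3365 bp). At distances of 501 to 1000 bp, 2 of 3 LTRs had a Hap2-GFP peak in both lists and none an Arp5-3HA peak.

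The LTR sequences were searched for 3 short motifs on both strands. The TATA box letters TATAAA occurred in 173 of 238 LTRs (72.7%), in 39.1% of all 350-bp windows and in 53.4% of windows without a coding gene. They occurred in 39 of 59 LTRs with a Hap2-GFP peak in both lists (66.1%) and in 74.8% of the 135 with none, and in all 25 LTRs beside a Tf2 gene. In the LTR of Tf2-2 they start at base 146. ATGACGT, the core recognised by the stress-activated factors Atf1 and Pcr1, occurred in 0 of 238 LTRs and in 0.763% of windows. GTTCGA, part of the B box of tRNA genes, occurred in 3 LTRs (1.26%) and in 9.61% of windows. The ends TGT and ACA, typical of intact LTRs, were both present in 21 of 25 LTRs beside a Tf2 gene (84%) and in 65 of 213 solo LTRs (30.5%). The LTR near the tRNA-Val gene had neither.

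Genes known for the control of Tf elements were described as a group of 22. They include the CENP-B homologues cbp1, cbh1 and cbh2, which bind Tf elements, and the HIRA histone chaperone genes hip1, hip3, hip4 and slm9. Also included are the LTR-binding factor gene sap1, the histone chaperone asf1 and the histone methyltransferase set1. The group further holds histone deacetylases, CHD1-type remodellers, transcription factors, DNA repair genes and the nucleoporin nup124. In a window holding the 500 bp before the gene start and the 100 bp after it, 4 of 22 had a Hap2-GFP peak in both lists (18.2%; 18.6% of 5100 coding genes) and 2 an Arp5-3HA peak in both (9.09%; 5.75%). Over the gene itself, 5 of 22 had a Hap2-GFP peak in both lists (22.7%; 31.1% of coding genes) and 8 an Arp5-3HA peak in both (36.4%; 38.2%). In the start window the 4 were sap1, hip4, atf1 and cbp1, and the 2 were sap1 and asf1. No test was made of the group.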

How the data were processed

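Hap2-GFP and Arp5-3HA were each measured by ChIP-seq in 2 libraries, with proteins and replicate numbers taken from the labels. The authors made the peak lists, for which the submitters' processing notes list MACS2 2.1.2, BWA 0.7.17, Trimmomatic 0.36 and deepTools. Not given in the sources used here were thresholds, the genome build and the treatment of multiply matching reads. The deposited score is a whole number with no stated scale, used only as a rank within its list. Other deposited columns used were the start, the end and the summit offset. Depth per sample is unknown.

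Elements, genes and sequences came from the RefSeq annotation of ASM294v3. From the centre of a tRNA gene to its nearest Hap2-GFP summit, the median distance over tRNA genes was 39 to 44.8 bp on each of the 3 chromosomes. Coordinates were therefore used as given. Peaks on a sequence named MTR and on 1 further sequence outside the 3 chromosomes were left out. An element had a peak where at least 1 base overlapped. LTRs were matched to each other with blastn 2.17.0, and counts used Python 3.11.15 and scipy 1.17.1. Overlap counting was tested on simulated peaks.

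Every Tf2 gene was named, with each LTR peaked in all 4 lists, the 8 LTRs of highest rank for each protein and the 5 unpeaked LTRs nearest a tRNA gene. The other LTRs named by position, and those touched by Arp5-3HA in 1 list, were chosen after their values were seen. The members, gene list and classes were chosen with earlier results of these data known. In the gene list abp1 was read as cbp1 and hda1 as hos2. The alternatives were other overlap rules, score cuts, distances, single lists and a replicate block.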

Additional observations from a re-analysis of the deposited data

Results flagged for a closer look

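The share of LTRs with a peak, set against windows that touch no coding gene, was higher by 4.92 and 0.759 percentage points in the Hap2-GFP lists and stood at -10.2 and -10.6 percentage points in the Arp5-3HA lists. Against these windows every list of one protein differed in the opposite direction from every list of the other, and this difference was not tested. The pattern did not hold against the 5108 windows that also touched no element. There Hap2-GFP list 2 had a peak in 33.3% of windows and in 32.8% of LTRs. Outside the 3 chromosomes, the Hap2-GFP lists held 4 and 5 peaks on a sequence named MTR, which no comparison used, and the Arp5-3HA lists held 1 and 0.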

How the results depend on the processing

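The 0 of 13 Tf2 genes could not change for either protein under the alternatives run. No peak touched a Tf2 gene, and the nearest lay 290 bp away, beyond the 200 bp added. The higher share of LTRs with Hap2-GFP than with Arp5-3HA held its direction throughout. That difference of 33.2 percentage points was 7.98 with at least 50% of the LTR covered, 17.2 by summits, 17.4 with peaks of median score or above, 5.67 with the 1000 highest peaks and 35.9 with 200 bp added. It was 31.5 to 34.9 when replicate 1 or 2 of both proteins was left out, and with the replicate block the paired exact sign-flip test gave 33.2 with p = 0.5, the smallest that 2 pairs allow. The 59 LTRs with Hap2-GFP and 1 with Arp5-3HA became 7 and 0 with at least 50% covered, 17 and 0 by summits, 103 and 3 for either list, and 25 and 0 at median score or above. They became 7 and 0 with the 1000 highest peaks, 68 and 4 with 200 bp added and 34 and 1 of 135 LTRs with at least 50% unique words. Single lists gave 78 to 84 and 1 to 3. Windows were not set beside these counts under the other overlap rules or score cuts. How LTRs stand against windows is therefore given for the main overlap rule only. For LTRs away from tRNA genes, Hap2-GFP gave 2.99% with at least 50% covered, 7.26% by summits, 43.2% for either list, 9.83% at median score or above, 2.56% with the 1000 highest peaks, 28.2% with 200 bp added and 32.5 to 35% for single lists, and Arp5-3HA gave 0.855% for either list, 1.28% with 200 bp added and 0 to 0.855% for single lists. Near tRNA genes, Hap2-GFP gave 0% with at least 50% covered or by summits, 25% with the 1000 highest peaks, 100% of 1 LTR within 250 bp and 57.1% of 7 within 1000 bp. Arp5-3HA there gave 0% with at least 50% covered, by summits, at median score or above or with the 1000 highest peaks, 50% of 2 LTRs with at least 50% unique words, 100% of 1 within 250 bp and 14.3% of 7 within 1000 bp. Chosen after seeing the data, the LTRs touching no coding gene gave 52 and 1 of 222, and those outside the tandem array 55 and 1 of 234. No Tf2 gene has 50% unique words, so that alternative gave no value for them. The lists hold no reads, so a missing peak is not a measured absence of either protein.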
